A study of Mus musculus with 8 samples.

Results

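Toll-like receptor genes and their trafficking and signalling partners were followed in tdTomato-positive cells sorted from the mouse central amygdala. The 10 genes were taken from a named list: 7 receptors (Tlr1, Tlr2, Tlr3, Tlr4, Tlr7, Tlr9 and Tlr13), the chaperone Unc93b1, the adaptor Myd88 and the co-receptor Cd14. They were 10 of 21375 genes in the summed tables. The list was drawn up with the difference between the sorted populations in view. Levels by population are therefore given as a description, with no test. Tests are kept for age class and its interaction with population. Other genes of the pathway were put through the population fit, but their list was drawn up with earlier results known. Their counts by population are thus a description too. PKCd libraries (n = 4) came from male offspring of PKC delta-type::Cre mice crossed to Rosa::loxP-STOP-loxP-td-Tomato mice. SST libraries (n = 4) came from male offspring of SST::Cre mice crossed to the same kind of reporter line. PKCd replicates 3 and 4 came from mice of 18 weeks and PKCd replicates 1 and 2 from mice of 9 weeks. SST replicates 3 and 4 came from mice of 20 weeks and SST replicates 1 and 2 from mice of 8 weeks. The labels name no treatment, both groups carried Cre and the reporter, and about 1000 cells of 1 mouse went into each library. Cells were chosen by red fluorescence, and a Cre reporter stays on in any cell in which Cre has once been active, so the sort marks a history of Prkcd or Sst promoter activity.

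Toll-like receptors recognise microbial molecules and products of damaged cells. TLR1, TLR2 and TLR4 act at the cell surface, on bacterial lipopeptides and lipopolysaccharide, while TLR3, TLR7, TLR9 and TLR13 read nucleic acids inside endosomes. The membrane protein UNC93B1 carries the endosomal receptors out of the endoplasmic reticulum, CD14 passes lipopolysaccharide to TLR4, and MYD88 links every member of the family except TLR3 to kinases that switch on NF-kappaB. In the brain these genes are known chiefly from microglia.

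Start-site sequence from RefSeq (GRCm38.p6) was on hand for 6 of the 10 genes, as windows of 250 bases before to 50 bases after the start. Unc93b1, Tlr4, Tlr7 and Cd14 had no entry. Both strands were searched for GAGGAA, the core bound by PU.1, a transcription factor of myeloid cells, and for the interferon response type motif, in which GAAA stands in the same orientation on each side of a gap of 2 bases. The 6 genes had 7 windows. GAGGAA was found in 3 of the 7 (1 window each of Tlr1, Tlr9 and Tlr13), against 28.3% of 32851 windows of the same length. The other motif was found in 1 of the 7, that of Myd88, against 3.44% of windows. The motifs did not overlap each other. 3 windows are printed to set side by side an endosomal receptor gene with reads in the PKCd libraries (Tlr13), one with almost none (Tlr9) and the adaptor gene Myd88. Capitals mark the matches, each window reads in the direction of transcription, and positions are counted from the start site. Tlr13 lies on the plus strand at chrX:106143025-106143324, with a match starting at -83. Tlr9 lies on the plus strand at chr9:106222348-106222647, with matches at -112 and, on the opposite strand, at 13. Myd88 lies on the minus strand at chr9:119339969-119340268, with a match at -40.
Tlr13: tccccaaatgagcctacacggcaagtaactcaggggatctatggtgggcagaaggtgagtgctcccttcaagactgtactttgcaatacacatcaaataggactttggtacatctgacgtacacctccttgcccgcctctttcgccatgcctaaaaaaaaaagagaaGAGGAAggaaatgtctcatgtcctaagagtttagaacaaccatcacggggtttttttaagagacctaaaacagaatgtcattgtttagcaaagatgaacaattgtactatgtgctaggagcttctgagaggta
Tlr9: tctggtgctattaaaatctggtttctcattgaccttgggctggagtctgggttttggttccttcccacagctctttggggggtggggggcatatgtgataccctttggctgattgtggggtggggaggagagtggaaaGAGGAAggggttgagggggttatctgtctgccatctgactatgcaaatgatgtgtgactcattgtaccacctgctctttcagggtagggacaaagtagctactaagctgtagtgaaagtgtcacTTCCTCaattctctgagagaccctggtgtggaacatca
Myd88: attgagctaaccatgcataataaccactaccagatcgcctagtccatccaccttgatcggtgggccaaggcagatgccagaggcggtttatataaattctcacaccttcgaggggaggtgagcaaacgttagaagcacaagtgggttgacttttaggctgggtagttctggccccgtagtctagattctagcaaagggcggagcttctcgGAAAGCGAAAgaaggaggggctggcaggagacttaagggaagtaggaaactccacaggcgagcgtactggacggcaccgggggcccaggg
A match is a stretch of letters and not a measured binding site. Tlr9 held more GAGGAA matches than Tlr13 and had 2 counts in all 8 libraries together, whereas Tlr13 had 671 counts in the 4 PKCd libraries.

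Library totals were 964361 to 18242496 estimated counts, and the 4 libraries of older mice were the shallower ones. Prkcd averaged 177.7 ± 56.8 TPM (a level per transcript length) in PKCd libraries, against 10.5 TPM in the SST ones, with no overlap. Sst averaged 60.2 ± 108.5 TPM in the PKCd libraries, against 237.8 TPM in SST libraries, and the groups overlapped: the highest PKCd library had 222.7 TPM of Sst and the lowest SST library 116.3 TPM. Both sorts held RNA of several cell types. The neuronal gene Snap25 reached 30.9 to 324.8 TPM in the PKCd libraries, against 66.2 to 259.3 TPM in the SST libraries, and the 8 neuronal markers together reached 108.1 to 573.1 TPM in the PKCd libraries, against 117.6 to 507.4 TPM in SST libraries. The 16 microglial markers together reached 30564 to 51079 TPM in the PKCd libraries, against 473.6 to 5698 TPM in SST libraries, and none of the 16 was at 0 in any library. The 6 oligodendrocyte markers reached 11666 to 29394 TPM in the PKCd libraries, against 9895.5 to 59186 TPM in SST libraries. The 6 astrocyte markers reached 284.6 to 3756 TPM in the PKCd libraries, against 2472 to 6549 TPM in SST libraries. In every SST library the oligodendrocyte sum was the largest of these sums. In bulk samples fewer cells of a type and less RNA per cell cannot be told apart. TPM is scaled to transcript length and to a fixed total per library, so it compares levels between genes but keeps no depth. Intervals and floors given here cover only counting error, as reads of amplified cDNA are not separate molecules.

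Unc93b1 (chr19:3935158-3949340, GRCm38.p6) was the most abundant of the 10 genes in PKCd libraries. It stood at 583.9, 508.6, 770.0 and 516.1 TPM in PKCd replicates 1 to 4 and at 8.97, 26.3, 36.8 and 41.3 TPM in SST replicates 1 to 4. Every PKCd library lay far above every SST library. The means were 594.6 ± 121.7 TPM in the PKCd libraries, against 28.3 ± 14.4 TPM in the SST libraries (SD, n = 4 each). The mean in PKCd libraries was 20.98 times the mean in SST libraries. These levels rested on 14463, 7764, 920 and 973 counts in PKCd replicates 1 to 4 and on 183, 499, 72 and 136 counts in SST replicates 1 to 4. On the log2 scale of the edgeR fit with terms for age class and population, the difference was 4.61 ± 0.53 (SE). The value lay between 4.12 and 5.12 in the 18 alternative settings. With all libraries thinned to 964292 counts, PKCd libraries kept 605 to 920 Unc93b1 counts and SST libraries 12 to 55.

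Unc93b1 has a target of 2266 bases and one of 1992 bases among the deposited transcripts. The shorter one took 0.138% of Unc93b1 counts in PKCd replicate 1 (95% exact binomial interval 0.0845 to 0.214%) and 4.06% in PKCd replicate 2 (3.63 to 4.52%). It was at 0 in PKCd replicates 3 and 4 and in SST replicates 2 to 4. In SST replicate 1 it took 91.8% of 183 counts (86.8 to 95.3%). The library with the lowest Unc93b1 level was thus the one whose reads were assigned mostly to the shorter target. The authors' tool divides reads that fit both targets, so these shares are estimates.

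Tlr7, the receptor for single-stranded RNA (chrX:167303380-167330574), was seen in all 4 PKCd libraries. It stood at 20.0, 38.2, 14.4 and 23.2 TPM in PKCd replicates 1 to 4, against 7.74, 0, 0 and 0.349 TPM in SST replicates 1 to 4. Every PKCd library lay above every SST library, and SST replicate 1 held 313 of the 315 SST counts. The edgeR difference was 4.33 ± 1.93 on the log2 scale, and it was 8.09 without SST replicate 1. A fitted difference that rests on SST libraries at 0 depends on the prior count and is no bound. In PKCd replicate 1 a 3830-base target took 29.4% of 866 Tlr7 counts (26.4 to 32.6%, 95% exact binomial interval), and a 3794-base target took all Tlr7 counts of the other libraries with any.

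Tlr13, which in mice reads bacterial ribosomal RNA (chrX:106143275-106160493), gave a like picture at a lower level. It stood at 9.10, 4.23, 19.5 and 26.4 TPM in PKCd replicates 1 to 4, against 1.75 TPM in SST replicate 1 and 0 in SST replicates 2 to 4. The groups did not overlap. The means were 14.8 ± 10.03 TPM in the PKCd libraries, against 0.437 ± 0.874 TPM in the SST libraries (SD, n = 4 each), and 75 counts of SST replicate 1 made up the whole SST signal. The edgeR difference was 5.35 ± 2.55 on the log2 scale, and it was 10.6 without SST replicate 1.

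Tlr3, the receptor for double-stranded RNA (chr8:45395665-45411075), stood at 10.6, 17.2, 28.1 and 25.8 TPM in PKCd replicates 1 to 4. It stood at 0.0431, 0, 11.5 and 3.49 TPM in SST replicates 1 to 4. The groups met only where SST replicate 3, with 45 counts, passed PKCd replicate 1, with 526 counts from a deeper library. The means were 20.4 ± 8.02 TPM in the PKCd libraries, against 3.77 ± 5.43 TPM in the SST libraries (SD, n = 4 each). The SST libraries with Tlr3 reads above the floor of 3 counts were those of the older mice, while the Tlr7 and Tlr13 reads of SST libraries above that floor were in replicate 1.

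Tlr9, the receptor for unmethylated CpG DNA (chr9:106222598-106226876), was not detectable at this depth beyond 1 count in PKCd replicate 4 and 1 count in SST replicate 4. The floor of 3 counts that a library at 0 still allows is, for Tlr9, 0.0765 to 1.59 TPM in the PKCd libraries and 0.0815 to 0.969 TPM in the SST libraries. Unc93b1 at 508.6 TPM or more in PKCd libraries therefore stood beside 3 endosomal receptors with reads and 1 at or under the floor.

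Of the 3 surface receptor genes, Tlr4 was irregular from library to library in each population, Tlr1 in PKCd libraries and Tlr2 in SST libraries. Tlr2, which pairs with TLR1 or TLR6 on lipopeptides (chr3:83836272-83841824), stood at 15.3, 10.3, 16.9 and 21.5 TPM in PKCd replicates 1 to 4, against 1.67, 28.9, 0 and 10.6 TPM in SST replicates 1 to 4. The highest and the lowest Tlr2 values were both in SST libraries. The edgeR difference was 0.89 ± 1.54 on the log2 scale. It was 2.10 without SST replicate 2, 0.31 without SST replicate 3 and 0.0057 in the younger libraries alone. Tlr4, the lipopolysaccharide receptor (chr4:66827551-66846581), stood at 10.9, 0, 39.4 and 1.20 TPM in PKCd replicates 1 to 4, against 7.34, 0, 0 and 12.2 TPM in SST replicates 1 to 4. Each population thus had Tlr4 at 0 in at least 1 library and above 10 TPM in at least 1 other. The edgeR difference for Tlr4 was 0.93 ± 2.24, and it lay between -0.70 (without PKCd replicate 3) and 3.21 (without SST replicate 1) in the alternatives. Tlr1 (chr5:64924680-64933600) was carried by PKCd replicates 1 and 4, at 7.96 and 52.6 TPM, and was at 0 in PKCd replicates 2 and 3. It was at 0.746 TPM, from 3 counts, in SST replicate 4 and at 0 in SST replicates 1 to 3. Tlr1 and Tlr9 did not pass the filter on low counts, so 8 of the 10 genes entered the fits.

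Cd14, the co-receptor that hands lipopolysaccharide to TLR4, was the second most abundant gene in PKCd libraries. It stood at 236.4, 182.0, 467.4 and 290.2 TPM in PKCd replicates 1 to 4, against 82.0, 0, 2.17 and 8.58 TPM in SST replicates 1 to 4. Every PKCd library lay above every SST library, and SST replicate 1 stood well above the other SST libraries. The means were 294.0 ± 123.8 TPM in the PKCd libraries, against 23.2 ± 39.4 TPM in the SST libraries (SD, n = 4 each). The edgeR difference was 3.98 ± 1.69, and without SST replicate 1 it was 7.52. PKCd replicate 2 had 182.0 TPM of Cd14 and no Tlr4 count.

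Myd88 (chr9:119335934-119340018) did not share this pattern. It stood at 39.3, 3.55, 35.5 and 52.7 TPM in PKCd replicates 1 to 4, against 22.1, 20.3, 57.6 and 39.7 TPM in SST replicates 1 to 4. The groups overlapped over most of their range, and the lowest value was in PKCd replicate 2. The means were 32.7 ± 20.8 TPM in the PKCd libraries, against 34.9 ± 17.5 TPM in the SST libraries (SD, n = 4 each), with an edgeR difference of -0.09 ± 0.97 on the log2 scale.

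**Figure D1:**
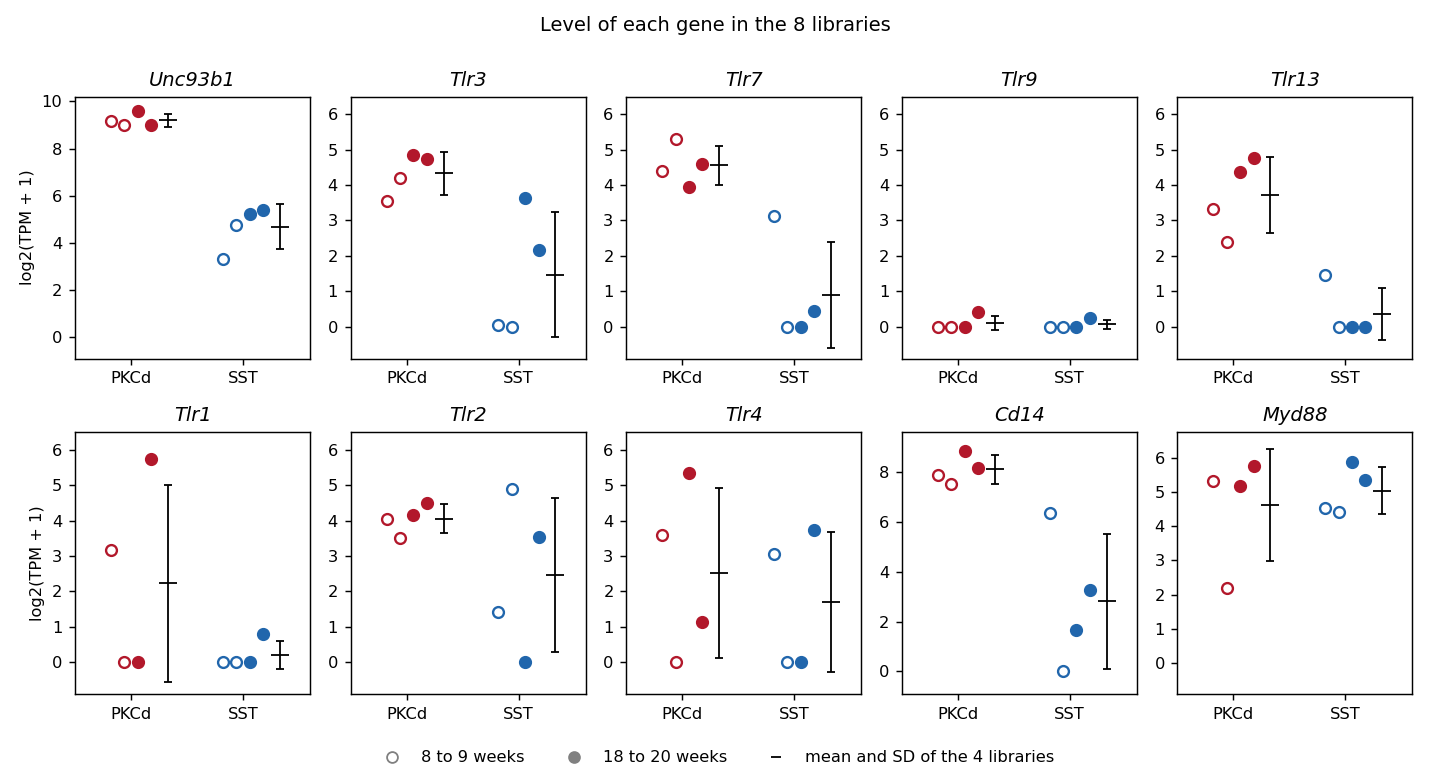
Level of each of the 10 genes as log2(TPM + 1), with 1 point per library, open for 8 to 9 weeks and filled for 18 to 20 weeks, and a bar for the mean and SD of the 4 libraries of a population. Vertical scales differ between panels. Unc93b1, Cd14, Tlr7 and Tlr13 have all 4 PKCd points above all 4 SST points, while Myd88, Tlr2, Tlr3, Tlr4, Tlr1 and Tlr9 overlap.

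In PKCd libraries the order of mean levels was Unc93b1, Cd14, Myd88, Tlr7, Tlr3, Tlr2, Tlr1, Tlr13, Tlr4 and Tlr9. Unc93b1 was above Cd14 and Cd14 above Myd88 in 4 of 4 libraries with ranges apart, and each later pair of neighbours had overlapping ranges. In SST libraries the order was Myd88, Unc93b1, Cd14, Tlr2, Tlr4, Tlr3, Tlr7, Tlr13, Tlr1 and Tlr9, and every pair of neighbours overlapped. Every PKCd library lay above every SST library for 4 of the 10 genes (Unc93b1, Tlr7, Tlr13 and Cd14), against 3.87% of the 11370 genes tested, and for none of the 10 did every PKCd library lie below, against 3.04%. The contrast was used to choose the genes, so nothing is read from these shares. The edgeR call rule (adjusted p under 0.05) took 0.281% of genes as higher in PKCd libraries and 0 as lower, with 759 genes (6.68%) under an unadjusted p of 0.05, and DESeq2 took 3.27% as higher and 0.825% as lower.

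The 7 receptor genes together gave 74.0, 70.0, 118.3 and 151.0 TPM in PKCd replicates 1 to 4, against 18.5, 28.9, 11.5 and 27.6 TPM in SST replicates 1 to 4. Between 4 and 6 of the 7 had more than 3 counts in a PKCd library, against 1 to 4 in an SST library. The endosomal receptors made up 53.7, 85.2, 52.4 and 50.1% of this receptor TPM in PKCd replicates 1 to 4, and 51.4, 0, 100 and 14.6% in SST replicates 1 to 4. PKCd libraries were thus alike in this share apart from replicate 2, and SST libraries ran from one end of the scale to the other. Unc93b1 stood at 6.82 to 14.7 times the summed endosomal receptors among these 7 genes in PKCd libraries. Receptors outside the 7, such as Tlr12, are not in these sums and shares. In the 3 SST libraries with such reads it stood at 0.942, 3.20 and 10.2 times that sum in replicates 1, 3 and 4, so in SST replicate 1 it did not exceed the receptors.

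Most microglial markers, like Unc93b1, Cd14, Tlr7 and Tlr13, stood higher in every PKCd library. Myd88, Tlr2, Tlr3, Tlr4, Tlr1 and Tlr9 overlapped between the groups. The part of microglial RNA in the result was not tested. 15 of the 16 markers had every PKCd library above every SST library, with Gpr34 as the exception, against 3.87% of the 11370 genes tested. The edgeR rule called 5 of the 16 higher, against 0.281% of all genes. The sums averaged 37639 ± 9520 TPM in the PKCd libraries, against 2297 ± 2323 TPM in the SST libraries (SD, n = 4 each). Set against this sum, Unc93b1 was 1.55, 1.66, 1.51 and 1.65% in PKCd replicates 1 to 4, and 0.157, 1.57, 2.73 and 8.71% in SST replicates 1 to 4. The PKCd libraries lay close together in this proportion, and the SST libraries lay on both sides of them. That closeness depended on the 3 C1q genes in the sum: without them the proportion was 3.14, 4.20, 2.78 and 3.08% in PKCd replicates 1 to 4, and 0.333, 3.57, 5.52 and 12.3% in SST replicates 1 to 4. The lowest proportion was in SST replicate 1, the SST library with the highest microglial sum. Cd14 was 0.627, 0.595, 0.915 and 0.930% of the sum in PKCd replicates 1 to 4, and 1.44, 0, 0.161 and 1.81% in SST replicates 1 to 4. Myd88 was 0.0116 to 0.169% in PKCd libraries and 0.388 to 8.38% in SST libraries, with no overlap. Myd88 TPM itself overlapped between the groups, so this separation follows the sum it was divided by and is no result about Myd88.

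**Figure D2:**
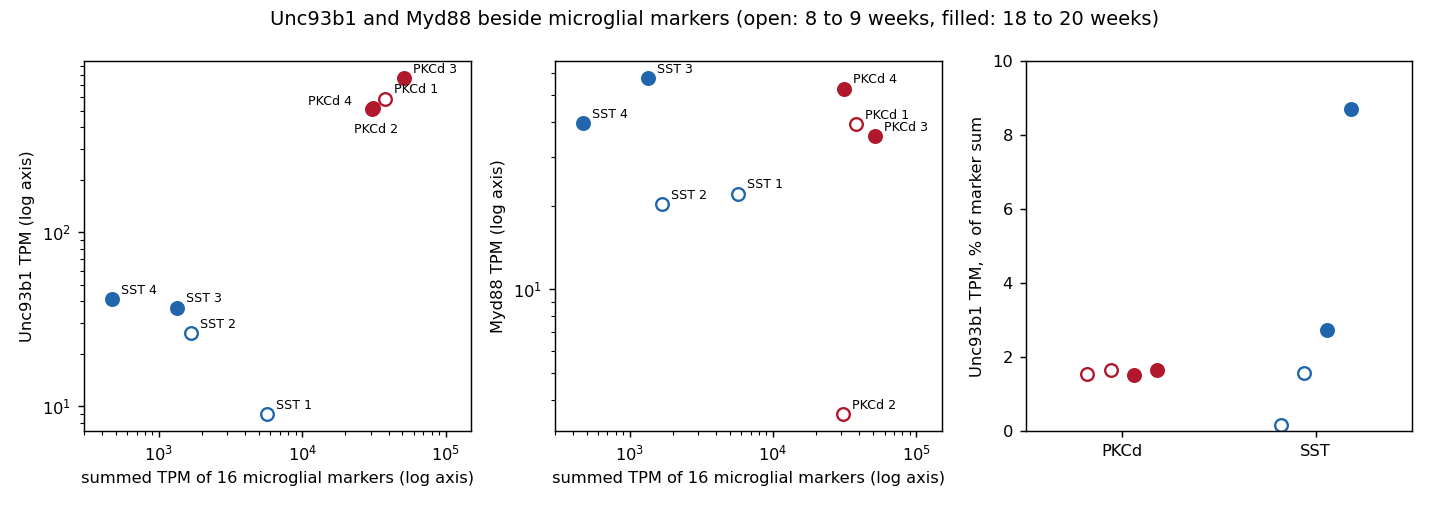
Unc93b1 (left) and Myd88 (middle) in TPM against the summed TPM of the 16 microglial markers, with 1 point per library and log axes, and Unc93b1 as a percentage of that sum (right, linear axis). PKCd libraries are red, SST libraries blue, open points are 8 to 9 weeks and filled points 18 to 20 weeks. The PKCd libraries lie at sums of 30564 to 51079 TPM and at 1.51 to 1.66%, while the SST libraries lie at 473.6 to 5698 TPM and spread from 0.157 to 8.71%.

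Markers of other myeloid cells differed within the groups, and their part was not tested either. The 6 border macrophage markers summed to 13.2, 509.5, 37.7 and 83.0 TPM in PKCd replicates 1 to 4 and to 0.111 to 3.61 TPM in SST libraries, where Pf4 was at 0. PKCd replicate 2, with the highest such sum, had the highest Tlr7 and the lowest Myd88 level of the PKCd libraries. The 6 monocyte and neutrophil markers summed to 0.331 to 14.5 TPM in PKCd libraries and to 1.92, 0, 195.5 and 72.3 TPM in SST replicates 1 to 4. The 2 SST libraries with the highest such sums were also those with Tlr3 reads above the floor. The same held for the 6 endothelial markers, which summed to 96.1, 1369, 516.5 and 1696 TPM in PKCd replicates 1 to 4, against 15.6, 0.204, 281.1 and 791.3 TPM in SST replicates 1 to 4. The endothelial receptor gene Tek gave edgeR log2 differences of 5.97 by population, 5.31 by age class and -7.69 for their interaction, beside 5.12, 3.87 and -6.86 for Tlr3. For Pecam1 these were 2.97, 4.88 and -7.32. None of the 6 endothelial markers had groups apart by population, both of these were named after their values were seen, and their part in the Tlr3 values was not tested.

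Likeness to Unc93b1 was the root mean square difference between log2(TPM + 1) profiles over the 8 libraries, each centred at its own mean. The 7784 candidates had a mean of at least 10 TPM in PKCd libraries. The 5 genes most like Unc93b1 were Csf3r (0.52), Abi3 (0.57), Arhgap30 (0.59), Dennd1c (0.61) and Lag3 (0.62). Arhgap30, Dennd1c and Lag3 averaged 0.481, 0.442 and 0.239 TPM in SST libraries, so their likeness depends on the added 1. The median candidate differed by 2.58. Csf3r averaged 94.7 ± 27.5 TPM in the PKCd libraries, against 2.11 ± 0.985 TPM in SST libraries, and Abi3 averaged 111.3 ± 26.7 TPM in the PKCd libraries, against 5.98 ± 1.94 TPM in the SST libraries (SD, n = 4 each). Among the receptors Tlr3 was nearest to Unc93b1 at 1.20, with 103 candidates nearer, followed by Tlr13 at 1.32 and Tlr7 at 1.61. Tlr2 differed by 2.02, Cd14 by 2.16, Tlr1 by 2.24 and Tlr9 by 2.32. Myd88 at 2.68 and Tlr4 at 2.71 were farther than the median candidate. Tlr9 had almost no counts, so a distance somewhat under the median is no sign of a like profile. The profiles hold the population contrast used to choose the genes, and candidates entered by their level in PKCd libraries. A near gene is thus mostly one with a like difference between the populations, and nothing is read from the ranking. The 8 points share libraries and depth, so likeness is a description.

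The second comparison set libraries of older mice (18 or 20 weeks, n = 4) against those of younger mice (8 or 9 weeks, n = 4) and was not used to choose the genes. None of the 8 genes past the filter was called for age class in the edgeR quasi-likelihood test. Its Benjamini-Hochberg adjusted p lay between 0.666 and 0.955. The rule called 0.0352% of all genes higher and 0.0264% lower, and 950 genes (8.36%) were under an unadjusted p of 0.05. None of the 8 was under an unadjusted edgeR p of 0.05. None was called by DESeq2, which called 2.31% of all genes higher and 2.84% lower. Tlr3 had a DESeq2 unadjusted p of 0.00467 and adjusted p of 0.0726. In counts simulated for age class, edgeR recovered 1.75% of 4-fold and 44.1% of 16-fold changes. Differences of these sizes would thus mostly go uncalled. Unc93b1 was at 770.0 and 516.1 TPM in older PKCd mice and 583.9 and 508.6 TPM in younger ones, and at 36.8 and 41.3 TPM in older SST mice and 8.97 and 26.3 TPM in younger ones. Its edgeR difference was 0.55 ± 0.46 (adjusted p = 0.770), where the median of all genes was -0.17. The older SST libraries lay above the younger ones for Unc93b1, and the PKCd libraries overlapped. Tlr3 had the largest age difference of the 8, at 3.87 ± 2.12 (adjusted p = 0.666), and averaged 17.2 TPM in older and 6.98 TPM in younger libraries. Tlr7 had the most negative difference, at -2.61 ± 1.87 (adjusted p = 0.742). Cd14 and Myd88 stood at -1.31 ± 1.66 and 0.87 ± 0.97 (edgeR adjusted p = 0.866 and 0.850). Mean TPM went against the sign of the fit for Tlr13, at 11.5 TPM in older and 3.77 TPM in younger libraries with a fitted -1.18 ± 2.63, and for Cd14, at 192.1 TPM in older and 125.1 TPM in younger libraries. Older and younger libraries overlapped for each of the 10 genes, against 4.14% of all genes with every older library above and 3.52% with every older library below. Age class and depth cannot be told apart.

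Whether the PKCd minus SST difference itself depended on age class was tested as an interaction (older minus younger). No gene of the 11370 was called by edgeR, with 471 (4.14%) under an unadjusted p of 0.05, and DESeq2 called 79 (0.106% higher, 0.589% lower). All 8 genes had an adjusted p of 0.9999. Tlr3 was the only one of the 8 under an unadjusted p of 0.05, with -6.86 ± 2.51 on the log2 scale (DESeq2 adjusted p = 0.0501). In older mice Tlr3 stood at 28.1 and 25.8 TPM in the PKCd libraries, against 11.5 and 3.49 TPM in SST libraries. In younger mice it stood at 10.6 and 17.2 TPM in the PKCd libraries, against 0.0431 and 0 TPM in SST libraries. The Tlr13 interaction was 9.15 ± 4.82, with 0 counts in the older SST libraries. It was 6.68 with DESeq2, 2.44 with limma on log2(TPM + 1) and 1.63 without SST replicate 1. The Tlr13 and Tlr3 values rest on SST libraries at or near 0, so their sizes are no bound. The Unc93b1 interaction was -1.04 ± 0.92. In counts simulated for the interaction on 10703 genes, edgeR recovered 0% of 4-fold, 3.17% of 16-fold and 9.68% of 64-fold changes, so a difference of these sizes would mostly go uncalled at this depth and n.

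**Figure D3:**
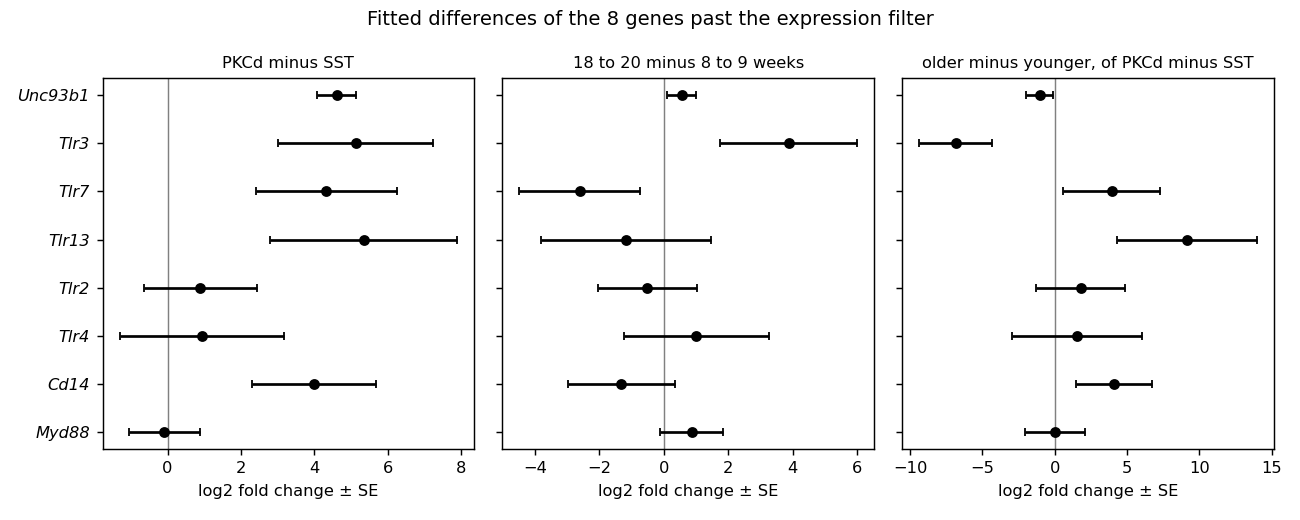
edgeR log2 fold change with its SE for the 8 genes past the filter, in 3 panels: PKCd minus SST, older minus younger, and the older minus younger change of the PKCd minus SST difference. In the first panel, which is a description, Unc93b1 at 4.61 has the shortest bar and Myd88 sits at -0.09. In the others Tlr3 is farthest out in the age panel, at 3.87, and Tlr13 in the interaction panel, at 9.15 ± 4.82. The Tlr13 interaction rests on older SST libraries at 0 counts.

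The rest of the pathway was read from 67 further genes, grouped by role, of which 50 passed the filter and entered the population fit. This list was drawn up with earlier results of these data known, so its counts beside those of all genes are a description. Cd180 and Slc15a3 had 19 and 35 counts in the SST libraries together. One gene, the lysosomal protease gene Lgmn, rose in PKCd libraries by the edgeR test and none fell, against 0.281% and 0 of all genes. 8 of the 50 were under an unadjusted edgeR p of 0.05, against 6.68% of all genes. DESeq2 called 6 higher (Cd180, Ly86, Lgmn, Ctss, Slc15a3 and Irf5) and 0 lower, against 3.27% and 0.825% of all genes. The fitted difference was positive for 37 and negative for 13, with a median of 0.73 on the log2 scale beside -0.08 for all genes. Every PKCd library lay above every SST library for 8 of the 50 (Cd180, Ly86, Lgmn, Ctsb, Ctsl, Ctss, Slc15a3 and Irf5), against 3.87% of all genes, and none showed the reverse, against 3.04%.

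Lgmn encodes legumain, which cuts endosomal receptors into their active form. It stood at 1584, 1474, 3898 and 2697 TPM in PKCd replicates 1 to 4, against 302.9, 224.5, 303.6 and 320.4 TPM in SST replicates 1 to 4. The groups lay far apart. The edgeR difference was 2.95 ± 0.48 (adjusted p = 0.0318). Leaving out a library gave an edgeR adjusted p of 0.0154 to 0.183, and the call was lost without PKCd replicate 1 (0.0858), 3 (0.117) or 4 (0.0847) and without SST replicate 2 (0.0753), 3 (0.183) or 4 (0.163). Ctss, for cathepsin S of the same compartment, averaged 5333 ± 2053 TPM in the PKCd libraries, against 460.3 ± 556.6 TPM in the SST libraries (SD, n = 4 each; edgeR 3.82 ± 1.02, adjusted p = 0.261; DESeq2 adjusted p = 0.000444). 2 general chaperones of the receptors, named after their values were seen, had smaller differences. Hsp90b1 averaged 514.3 ± 82.3 TPM in the PKCd libraries, against 383.7 ± 156.3 TPM in the SST libraries (edgeR adjusted p = 0.890), and Cnpy3 averaged 139.7 ± 17.5 TPM in the PKCd libraries, against 81.9 ± 78.1 TPM in the SST libraries (edgeR adjusted p = 0.870).

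Among co-receptors, Ly86, the partner of the receptor-like CD180, averaged 1035 ± 146.3 TPM in the PKCd libraries, against 103.8 ± 155.9 TPM in the SST libraries (edgeR adjusted p = 0.312, DESeq2 0.00298). Hmgb1, a nuclear protein that can act as a ligand when released, was close in both, at 637.0 ± 173.5 TPM in the PKCd libraries, against 680.7 ± 186.2 TPM in the SST libraries (edgeR difference -0.11). Among receptors outside the 10, Tlr6, a partner of TLR2, stood at 6.39, 41.4, 2.16 and 0 TPM in PKCd replicates 1 to 4 and at 0 in every SST library, and was not tested. Tlr12 averaged 22.6 ± 23.8 TPM in the PKCd libraries, against 16.2 ± 16.2 TPM in the SST libraries (edgeR difference 0.20). Tlr6, like Tlr1, was thus carried by a few libraries.

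None of the adaptors, kinases, ubiquitin partners and inhibitors was called by edgeR or DESeq2, and edgeR differences on the log2 scale are given in brackets for the most abundant of each role. Tirap, the adaptor that brings MYD88 to TLR2 and TLR4, averaged 8.59 ± 5.61 TPM in the PKCd libraries, against 9.92 ± 9.11 TPM in the SST libraries (0.32). Ticam2, an adaptor of TLR4, did not pass the filter and was at 0 in 2 PKCd and 3 SST libraries. It averaged 9.77 ± 16.3 TPM in the PKCd libraries, against 0.102 TPM in SST libraries. The kinase gene Irak1, downstream of MYD88, averaged 48.0 ± 33.2 TPM in the PKCd libraries, against 43.4 ± 18.0 TPM in the SST libraries (0.07). Ikbkb, for a kinase that releases NF-kappaB, averaged 44.8 ± 39.6 TPM in the PKCd libraries, against 21.2 ± 12.03 TPM in the SST libraries (0.72). Of the ubiquitin partners, Ube2n averaged 70.9 ± 29.8 TPM in the PKCd libraries, against 127.1 ± 36.4 TPM in the SST libraries (-0.95), and Peli1 30.2 TPM in the PKCd libraries, against 49.9 TPM in the SST libraries (-0.50). The inhibitor genes Nfkbia and Tollip differed by 0.52 and 0.74. Levels of Myd88, Tirap, Irak1 and Ikbkb overlapped between the populations.

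Among transcription factors, Irf5, which acts below MYD88, averaged 116.4 ± 30.9 TPM in the PKCd libraries, against 3.31 ± 3.62 TPM in the SST libraries (edgeR 4.91 ± 1.36, adjusted p = 0.289; DESeq2 adjusted p = 0.00231). Rela, an NF-kappaB subunit, averaged 65.4 ± 14.4 TPM in the PKCd libraries, against 46.6 ± 40.8 TPM in the SST libraries (edgeR 0.68). The chemokine genes Ccl4 and Ccl3, which NF-kappaB induces, averaged 466.0 ± 460.2 and 203.8 ± 117.8 TPM in the PKCd libraries, against 452.8 ± 800.0 and 259.7 ± 458.1 TPM in SST libraries. SST replicate 1 alone stood at 1652 TPM of Ccl4 and 946.8 TPM of Ccl3. By age class 0 of the 50 genes were called by edgeR, against 0.0352% of all genes higher and 0.0264% lower. 1 of the 50 was under an unadjusted edgeR p of 0.05, against 8.36% of all genes. DESeq2 called 1 for age class, against 2.31% of all genes higher and 2.84% lower. By interaction edgeR called 0 of the 50 and 0 of all genes. 5 of the 50 were under an unadjusted edgeR p of 0.05 for the interaction, against 4.14% of all genes.

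**Figure D4:**
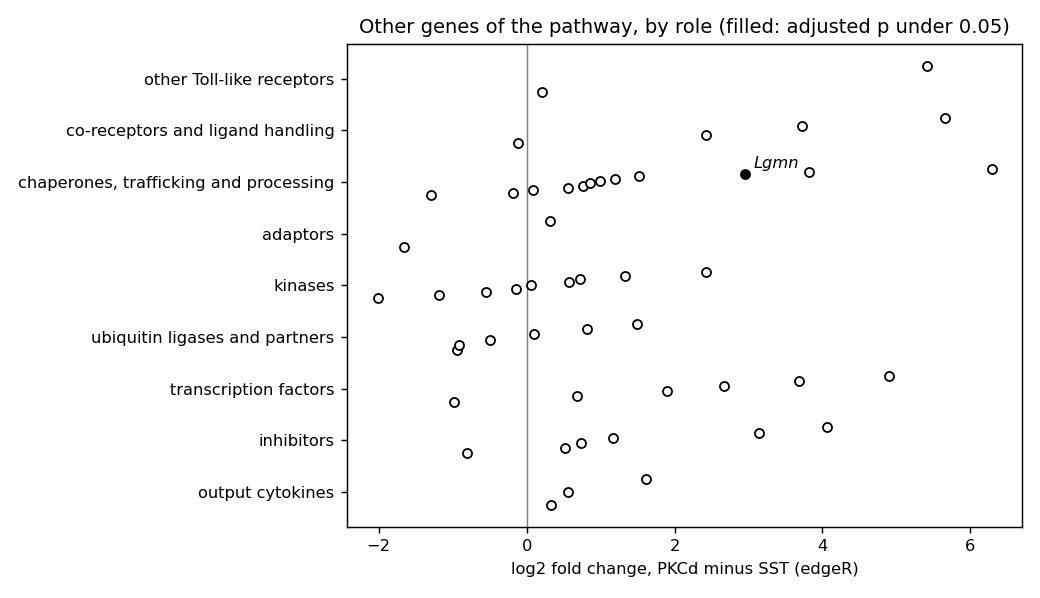
edgeR log2 fold change (PKCd minus SST) of each tested pathway gene by role, with 1 point per gene, filled where the adjusted p was under 0.05. Of 50 genes, 37 lie above 0 and 13 below, and Lgmn at 2.95 is the one filled point. Kinases lie on both sides of 0, from -2.01 (Irak4) to 2.43 (Mapk14), and Irf5 is the highest transcription factor at 4.91.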

How the data were processed

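RNA was measured in 8 libraries of sorted cells, prepared with a SMARTer smRNA-Seq kit, per the labels' protocols. Each deposited file gives per transcript an estimated count and a TPM value, made by the authors with kallisto (0.43.0 per the submitters' processing notes, which also name BWA 0.7.12 and mm10). Of 30404 targets, 29405 were named from RefSeq (GRCm38.p6), 142 from GENCODE, and 857 kept their accession. Of the target identifiers, 49 were repeated. Counts and TPM were summed per gene, and summed counts were rounded to whole numbers.

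The members and lists were chosen with earlier results of these data known. The main test was edgeR 4.0.16 (R 4.3.3), quasi-likelihood, with TMM scaling, its default filter by population (11370 genes left), terms for age class and population, and Benjamini-Hochberg adjusted p under 0.05. The SE was taken from the F statistic. Each library came from a different mouse. The shallowest library had 964361 counts and the deepest 18242496. Named genes are all members, called pathway genes, the 2 highest pathway genes per role, the 5 genes most like Unc93b1 with at least 10 TPM in PKCd libraries, and defining markers. Alternatives were RLE scaling, no filter, DESeq2 1.42.0, limma 3.58.1 on log2(TPM + 1) and log2(TPM + 0.1), thinning, no age term, each age class alone, the replicate number as a block, and each library left out. Exact binomial intervals came from scipy 1.17.1. The edgeR step was tested on simulated data. For the population comparison (10683 genes) it recovered 4% of 4-fold, 27.4% of 16-fold and 69.5% of 64-fold changes. For age class (10614 genes) it recovered 1.75%, 44.1% and 58.9%.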

Additional observations from a re-analysis of the deposited data

Results flagged for a closer look

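Among 63 groups of 4 libraries, 14 had a library far from the other 3 by Dixon's criterion. Chance flags about 1 in 20 groups of continuous values, and that rate does not hold here, since a group with 3 libraries at 0 and 1 above 0 is always picked out (Tlr1, Tlr9, Tlr13 and Ticam2 in SST libraries and Tlr9 in PKCd libraries). SST replicate 1 was the high library for Tlr7 (7.74 TPM, next 0.349), Tlr13 (1.75 TPM, next 0), Cd14 (82.0 TPM, next 8.58), Ly86 (336.1 TPM, next 50.3), Ccl3 (946.8 TPM, next 40.6) and Ccl4 (1652 TPM, next 78.0). That library also had the highest microglial marker sum of the SST libraries, at 5698 TPM, and the part of that sum in these values was not tested. Tlr1 was at 52.6 TPM in PKCd replicate 4 (next 7.96) and at 0.746 TPM in 1 SST library, the others being at 0. Tlr9 was at 0.335 TPM in 1 PKCd library and at 0.192 TPM in 1 SST library, each from 1 count. Ticam2 reached 33.9 TPM in 1 PKCd library (next 5.23) and 0.409 TPM in 1 SST library. Tlr6 reached 41.4 TPM in PKCd replicate 2 (next 6.39). The endosomal share of receptor TPM was 85.2% in PKCd replicate 2 (next 53.7%).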

How the results depend on the processing

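Genes called higher in PKCd libraries numbered 32, against 365 with DESeq2, 67 and 123 with limma on log2(TPM + 0.1) and log2(TPM + 1), 220 without the filter, 59 after thinning, 0 in older and 0 in younger mice alone, and 10 to 52 with a library left out (10 without PKCd replicate 3 or SST replicate 3, 12 without SST replicate 4, 14, 21 and 17 without PKCd replicates 1, 2 and 4, 52 without SST replicate 1). Genes called lower numbered 0, against 92, 2, 9, 51 and 1 under the first 5 of these settings, and 0 to 1 with a library left out. Pathway genes called higher numbered 1, against 6 with DESeq2, 3 and 4 with limma, 4 without the filter, 0 in each age class alone and 0 to 3 with a library left out. Age class gave 7 calls, against 562 with DESeq2, 14 and 62 with limma, 255 without the filter, 17 after thinning and 0 to 1 with a library left out; the interaction gave 0, against 79 with DESeq2 and 25 without the filter. No receptor or partner gene was called for age class or interaction in any alternative. RLE scaling moved the median age difference of all genes to -0.06, against -0.17 with TMM. The age difference changed sign with limma for Tlr13 (0.49 with log2(TPM + 1)) and Cd14 (0.050 with log2(TPM + 1), 0.73 with log2(TPM + 0.1)), and the Myd88 interaction after thinning (-0.15). With a library left out, the age difference ran from -1.14 to 0.69 for Tlr2, -0.64 to 3.26 for Tlr4, -3.46 to 0.33 for Tlr7, -3.09 to 1.46 for Tlr13 and -2.09 to 2.01 for Cd14, and the interaction from -0.81 to 11.1 for Tlr2, -7.94 to 11.5 for Tlr4, -5.52 to 8.88 for Tlr7, -0.89 to 2.48 for Myd88 and -7.48 to 5.60 for Cd14. Without the 3 C1q genes in the marker sum, which makes that sum smaller, Unc93b1 was 3.30 ± 0.619% of it in PKCd libraries (SD, n = 4), against 1.59 ± 0.0772% with them. Other causes were not tested. Same-numbered libraries share a number and an age class. Correlations of their deviations from population means were 0.0614 to 0.174, not all over 0.1. They were -0.00636 to -0.00354 when age class was centred too. With the replicate block edgeR called 24 genes higher and 0 pathway genes (Lgmn adjusted p = 0.0587). Tlr9 rests on 2 counts in all, and zeros of receptor genes occur in deep as well as shallow libraries (SST replicate 2, with 16009560 counts, had none for Tlr1, Tlr3, Tlr4, Tlr7, Tlr9 and Tlr13).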

Other observations

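Cytokine genes that Toll-like receptor signalling can switch on were low or irregular. Ifnb1, for interferon beta, and Il12b, for an interleukin-12 subunit, had no counts in any of the 8 libraries. Il6 lay between 0 and 40.9 TPM in PKCd libraries and between 0 and 3.53 TPM in SST libraries, and Il1b between 0 and 36.9 TPM in PKCd libraries and between 0 and 25.3 TPM in SST libraries. Cxcl10 ran the other way in its highest library, with up to 5.76 TPM in PKCd libraries and up to 140.6 TPM in SST libraries. These genes were named after their values were seen, and the 5 of them did not pass the filter on low counts.

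Ly96, whose product MD-2 joins TLR4 to bind lipopolysaccharide, averaged 28.4 ± 23.1 TPM in the PKCd libraries, against 7.36 ± 7.96 TPM in the SST libraries (SD, n = 4 each; edgeR difference 2.43 ± 1.62, adjusted p = 0.868). The TRIF adaptor gene Ticam1, which TLR3 uses, had 172 counts in 1 PKCd library and 0 counts in the other 3 and in the 4 SST libraries.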
